A study of Rattus norvegicus with 8 samples.

Results

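The miRNAs miR-532, miR-362, miR-501 and miR-500 are encoded close together on the rat X chromosome and were followed here in cultured stromal stem cells of rat marrow (BMSCs), which adhere to plastic and can turn into bone, cartilage or fat cells. All rows of the deposited miRNA table whose name, without species prefix and arm, is one of these 4 were taken, which gave 7 of 487 rows. They were both arms of miR-532, both arms of miR-362, both arms of miR-501 and the 3p arm of miR-500. The rows were found by name, but the cluster itself was selected on the measured difference between dexamethasone and control samples. That difference is therefore given as a description, without p-values. Where an arm is said below to pass or miss a statistical threshold, this too is only a description. The 4 control samples were labelled as controls with no further treatment named, and the 4 treated samples received dexamethasone, a synthetic glucocorticoid, at 10 µM for 48 h. The labels name no strain, donor, passage or vehicle, and leave unsaid if replicates came from separate cultures, so the spread between these samples can be technical.

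A miRNA is cut from a hairpin precursor, and either arm of the hairpin (5p or 3p) can be loaded into an Argonaute protein, where it pairs with messenger RNAs mainly through its seed, bases 2 to 8. miRNAs that lie close together on the same strand are often cut from a shared primary transcript. In human and mouse this group lies inside CLCN5, which encodes a chloride and proton exchanger of endosomes and is mutated in Dent disease, a disorder of kidney tubules. The neighbour miR-188 is known in mouse marrow stromal cells for favouring fat over bone formation.

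In RefSeq's annotation of the rat assembly GRCr8 (the count table was made on another build), the order of the hairpins along Clcn5 is Mir532, Mir188, Mir362, Mir501 and Mir500. All 5 are on the strand of Clcn5 and on chromosome X. Another miRNA gene, Mir3560, comes between Mir362 and Mir501 in the order of starts along Clcn5, and its mature form was not analysed here. RefSeq lists 2 start sites of Clcn5 in that assembly. All 5 hairpins lie downstream of the start that comes earlier along the gene, and 0 lie downstream of the other. The letters AGAACA, part of the site that the glucocorticoid receptor binds, were searched on both strands from 250 bases before to 50 after each start. Neither window held a match, and 20.7% of the 33469 rat promoter windows of that length did. This says only that these letters are not in these windows.

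The mature sequences from RefSeq (GRCr8) show which arms share a seed and which could share reads. They are written 5′ to 3′ with the seed in capitals, and none was found for miR-362-5p.
rno-miR-532-5p: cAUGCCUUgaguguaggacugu
rno-miR-532-3p: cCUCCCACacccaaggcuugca
rno-miR-188-3p: cUCCCACAugcaggguuugc
rno-miR-362-3p: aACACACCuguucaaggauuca
rno-miR-501-3p: aAUGCACCcgggcaaggauuugg
rno-miR-500-3p: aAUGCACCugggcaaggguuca

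miR-500-3p and miR-501-3p have the same seed, AUGCACC, and were identical at 18 of the 22 positions compared from base 1. Counted from the 5′ end, with the base of miR-500-3p before the number and that of miR-501-3p after it, they differ at U9C, G18A, C21U and A22G. miR-362-3p matched miR-500-3p at 17 of 22 positions but has another seed, ACACACC. The sources used here do not give how reads that fit more than 1 miRNA were assigned, so the split between miR-500-3p and miR-501-3p is uncertain. miR-532-3p and miR-188-3p share a run of 8 bases, CUCCCACA, which starts at base 2 in miR-532-3p and at base 1 in miR-188-3p, so their seeds overlap with a shift of 1 base.

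Library totals were 1835256 to 2639007 counts in controls and 1377881 to 1521505 in treated samples. The 4 treated totals all lay below the 4 control totals (p = 0.0286 in a two-sided exact permutation test, the lowest value possible with 70 assignments). The labelled cell type was checked with fixed marker lists. The 12 mesenchymal arms, led by miR-199a-3p, summed to 196000 to 208000 CPM (counts scaled to the library total) in controls. In treated samples the sum was 227000 to 256000 CPM. The 8 haematopoietic arms, led by miR-142-3p, summed to 36.4 to 49.8 and 51.8 to 68.2 CPM, and the 7 muscle arms, led by miR-206-3p, to 74.6 to 103 and 225 to 318 CPM. The 2 endothelial arms, miR-126a-3p above its 5p partner, summed to 1790 to 2000 and 1160 to 1330 CPM. In the fit across all miRNAs, 24.9% of those tested were past the threshold as higher and 21.2% as lower. Of 11 tested mesenchymal arms, 4 were past it as higher and 3 as lower. Each other list had 2 tested arms, of which 1 haematopoietic and 2 muscle arms were higher and 2 endothelial arms lower. Only arms with a row among the 487 could be counted, and each row held counts, so listed markers without a row are not seen here. Of the arms counted, 3 haematopoietic and 3 muscle arms stayed under 1 CPM in every control. All the marker sums moved with treatment, and their part in the results on the cluster was not tested.

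After dexamethasone the cluster was higher as a whole, and most of the added counts were miR-532-5p. The summed level of the 7 arms was 149.7, 159.7, 156.9 and 144.7 CPM in controls 1 to 4 and 284.4, 297.7, 261.7 and 269.3 CPM in treated samples 1 to 4. The treated libraries all lay above the controls, with a mean 1.82 times as high. Without miR-532-5p the sum was 58.9 to 67.7 CPM in controls and 78.7 to 106 CPM in treated samples, a ratio of means of 1.5. In bulk samples more cells with the miRNA and more of it per cell cannot be told apart.

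The arms fell into 3 levels in control cells. miR-532-5p was the most abundant, at place 113 of the 487 rows by mean control CPM, and its 4 control values lay above all values of the next arm. miR-501-3p (mean 24.1 CPM) and miR-532-3p (22.5 CPM) overlapped, at places 170 and 172. miR-500-3p (5.92 CPM), miR-362-5p (5.72 CPM) and miR-362-3p (4.34 CPM) overlapped one another and lay below miR-532-3p in every library, at places 241 to 254. The remaining arm, miR-501-5p, had 0 counts in all controls, which allows up to 1.14 to 1.63 CPM, and 1 count in treated replicate 1, and no fold change is given. In treated cells the same 3 levels held without overlap between them. The arms have 20 to 23 bases where RefSeq gives them, and library preparation captures some miRNAs better than others, so this order is one of counts, not of molecules.

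**Figure D1:**
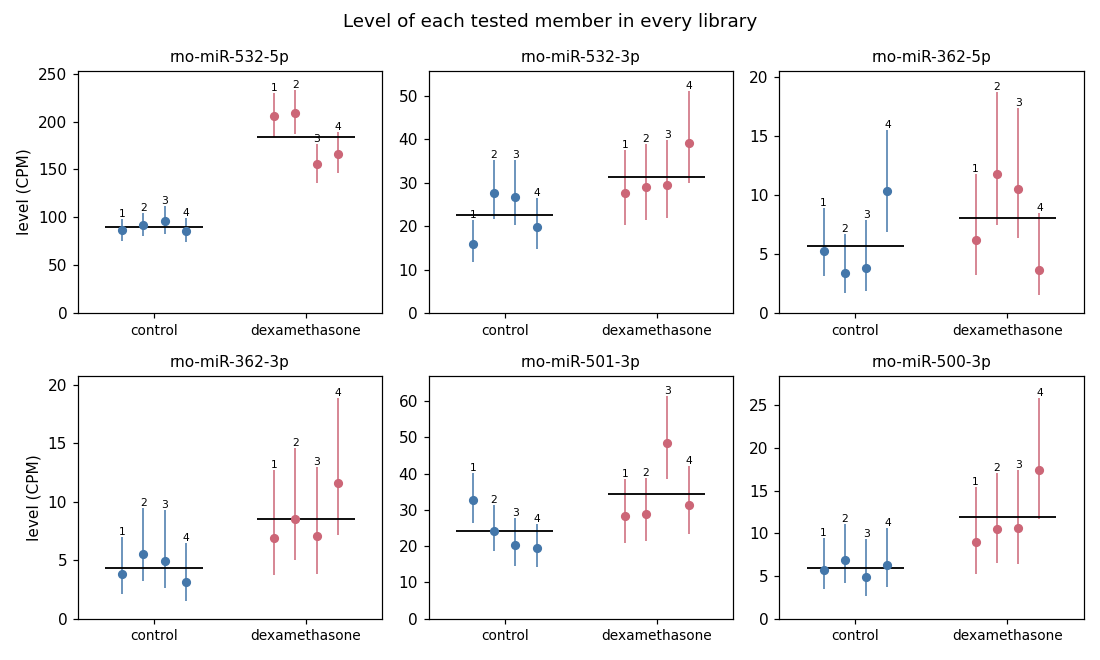
Level in CPM (vertical axes, from 0, own scale per panel) of the 6 tested arms in 4 control (blue) and 4 dexamethasone (red) libraries, numbered by replicate. Points are libraries, vertical lines their 95% Wilson interval for counting error only, and horizontal lines the group means; the groups do not overlap for miR-532-5p, miR-362-3p and miR-500-3p.

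An abundance filter on the counts kept 245 of the 487 miRNAs, among them 6 of the 7 arms, and these were compared in a single fit with edgeR's quasi-likelihood test (Benjamini-Hochberg adjustment, threshold 0.05). Of the 6 arms, 3 were past the threshold as higher, miR-532-5p, miR-362-3p and miR-500-3p, against a background of 24.9% of all tested miRNAs, and 0 were past it as lower, against 21.2%. The groups did not overlap, with treated above control, in the same 3 arms, against 21.6% of all tested, and in 0 arms with treated below control, against 20.4%. Since this contrast led to the choice of the cluster, nothing is read from these shares. The median log2 fold change (dexamethasone over control) of the 6 arms was 0.755, beside 0.00486 over all 245. miR-362-3p reached the filter's minimum of 5.96 CPM in 0 controls and 4 treated libraries, so it could enter the fit only through the group where it was high. miR-362-5p reached it in 1 control and 3 treated libraries and miR-500-3p in 2 and 4. The filter asks for that level in as many libraries as a group holds, so neither would have been kept on its controls alone. Of the 3 arms past the threshold as higher, only miR-532-5p would have been.

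miR-532-5p, known in human melanoma cells for targeting the transcription factor RUNX3, was the best measured arm. It was at 86.4, 92.0, 96.4 and 85.8 CPM in controls 1 to 4 (228, 216, 177 and 191 counts) and at 206, 209, 155 and 166 CPM in treated samples 1 to 4 (298, 318, 221 and 229 counts). All treated values were far above all controls, and treated replicates 1 and 2 stood above 3 and 4. The means were 90.2 ± 5.02 and 184 ± 27.2 CPM (SD, n = 4 each), with a log2 fold change of 1.06 ± 0.12 (SE), at place 11 from the top among the 245. In controls its variance was 0.585 times that of counting noise, and in treated libraries 5.81 times, so the treated libraries differed among themselves by more than counting error.

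Its partner arm miR-532-3p differed by less. It was at 15.9, 27.7, 26.7 and 19.8 CPM in controls 1 to 4 and at 27.6, 28.9, 29.6 and 39.2 CPM in treated samples 1 to 4. Control replicate 2 lay just above treated replicate 1, so the groups overlapped. The means were 22.5 ± 5.63 and 31.3 ± 5.31 CPM (SD, n = 4 each) and the log2 fold change 0.51 ± 0.20 (SE), which did not pass the threshold. It passed without control replicate 2 (0.623) and without dexamethasone replicate 1 (0.552), and it was smallest, and did not pass, without control replicate 1 (0.353).

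miR-362-3p, known in human colon cancer cells for targeting E2F1, was measured with 7 to 16 counts per library. It was at 3.79, 5.54, 4.90 and 3.15 CPM in controls 1 to 4 and at 6.90, 8.54, 7.04 and 11.6 CPM in treated samples 1 to 4. The groups did not overlap, although the counting intervals of single libraries did, for example 3.23 to 9.47 CPM in control replicate 2 and 3.75 to 12.7 CPM in treated replicate 1. The means were 4.34 ± 1.08 and 8.52 ± 2.19 CPM (SD, n = 4 each), with a log2 fold change of 0.99 ± 0.31 (SE). The fold change was 0.913 without control replicate 1 and 0.838 without control replicate 4, and in neither fit did it pass the threshold. It also missed it with DESeq2 (0.976), with no abundance filter (0.978) and with the replicate number as a block (0.984).

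miR-362-5p, known in human gastric cancer cells for targeting the deubiquitinase CYLD, was the most variable tested arm. It was at 5.31, 3.41, 3.81 and 10.3 CPM in controls 1 to 4 and at 6.21, 11.8, 10.6 and 3.63 CPM in treated samples 1 to 4. Control replicate 4 was among the higher values and treated replicate 4 among the lowest, so the groups overlapped broadly. The means were 5.72 ± 3.19 and 8.06 ± 3.81 CPM (SD, n = 4 each), with a log2 fold change of 0.52 ± 0.43 (SE) that did not pass. Leaving out dexamethasone replicate 2 gave 0.26, leaving out control replicate 2 gave 0.326 and leaving out dexamethasone replicate 4 gave 0.782. When control replicate 4 was left out, the arm was filtered out.

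miR-501-3p, known in mouse and rat neurons for repressing the glutamate receptor subunit GluA1, was at 32.6, 24.3, 20.2 and 19.3 CPM in controls 1 to 4. In treated replicates 1 to 4 it was at 28.3, 28.9, 48.5 and 31.2 CPM. Control replicate 1 lay above 3 of the treated libraries and treated replicate 3 stood apart at the top. The means were 24.1 ± 6.07 and 34.2 ± 9.62 CPM (SD, n = 4 each), with a log2 fold change of 0.51 ± 0.22 (SE) that did not pass. It passed without control replicate 1 (0.696), and without dexamethasone replicate 3 it was 0.287 and did not pass.

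miR-500-3p, which shares its seed with miR-501-3p, was at 5.68, 6.81, 4.90 and 6.29 CPM in controls 1 to 4 and at 8.97, 10.5, 10.6 and 17.4 CPM in treated samples 1 to 4. All treated values lay above all controls, and treated replicate 4 was the highest. The means were 5.92 ± 0.821 and 11.9 ± 3.77 CPM (SD, n = 4 each), with a log2 fold change of 1.00 ± 0.28 (SE). It missed the threshold when all libraries were thinned to the smallest total (0.745), and without dexamethasone replicate 4 its log2 fold change was 0.796.

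**Figure D2:**
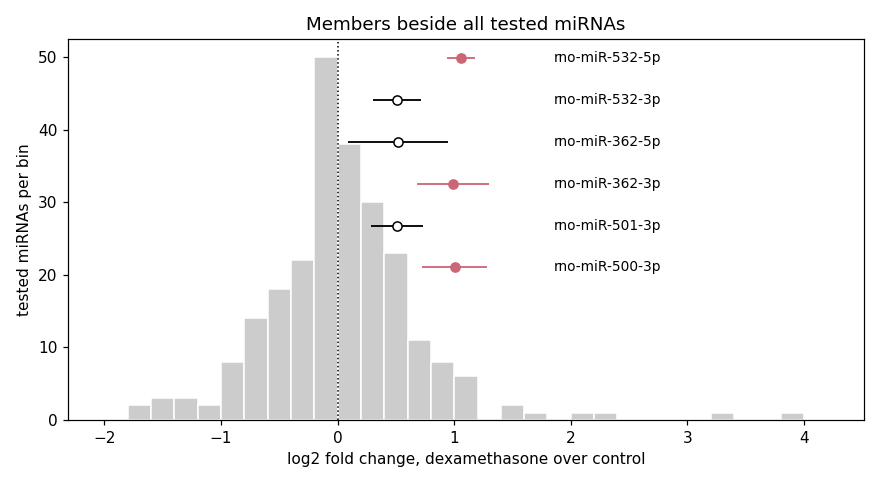
Grey bars count the 245 tested miRNAs by log2 fold change (dexamethasone over control, horizontal axis); the dotted line is their median, 0.00486. Points with bars are the 6 arms with their SE, placed vertically only for reading, filled red where past the edgeR threshold and open where not; all 6 lie to the right of the median.

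The raw counts show how far these differences rest on the scaling by depth. The treated libraries together held 0.638 times the counts of the controls. miR-532-5p still had more counts in the 4 treated libraries (1066) than in the 4 controls (812), as had miR-500-3p (68 against 54) and miR-362-3p (49 against 39). miR-532-3p (180 against 200), miR-501-3p (197 against 223) and miR-362-5p (47 against 52) had fewer. Depth and treatment cannot be told apart in this design.

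miR-532-5p held more of the cluster's counts after treatment, with overlapping groups. Its share was 59.0 ± 1.8% in controls and 65.9 ± 6.31% in treated samples (SD, n = 4 each), with a range of 57.6 to 61.5% and of 59.4 to 72.3%. miR-501-3p held 15.8 ± 4.11% and 12.5 ± 4.15%, and miR-532-3p 14.7 ± 3.16% and 11.3 ± 2.29% (SD, n = 4 each). The 3 low arms each held under 5% on average in both groups. Within the pair with a shared seed, miR-500-3p made up 14.9 to 24.6% of the counts in controls and 17.9 to 35.8% in treated libraries.

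The ratio of 5p to 3p counts within a hairpin does not depend on library scaling. For miR-532 it was 5.43, 3.32, 3.61 and 4.34 in controls 1 to 4 and 7.45, 7.23, 5.26 and 4.24 in treated samples 1 to 4. The 5p arm led in all 8 libraries, and treated replicate 4 lay within the control range. On the log2 scale, with 1 added to each count, the mean was 2.01 ± 0.309 in controls and 2.53 ± 0.385 in treated samples (SD, n = 4 each). The difference of 0.517 was exceeded, in the same direction, in 5 of the 51 other hairpins with both arms tested. Their differences had a median of 0.098 and ranged from -1.5 to 0.988. Shifts towards the 3p arm were not counted here, whatever their size.

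miR-362 had no leading arm. Its ratio was 1.4, 0.615, 0.778 and 3.29 in controls 1 to 4 and 0.9, 1.38, 1.5 and 0.312 in treated samples 1 to 4. The 5p arm led in control replicates 1 and 4 and treated replicates 2 and 3, and the 3p arm in the other libraries, so neither group favoured an arm. The mean log2 ratio was 0.268 ± 0.989 in controls and -0.165 ± 0.941 in treated samples (SD, n = 4 each); it changed sign without control replicate 4 (-0.171) and without dexamethasone replicate 4 (0.281).

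Treated replicate 4 had the lowest 5p to 3p log2 ratio of both hairpins among the treated libraries, 2.06 for miR-532 and -1.50 for miR-362. The next lowest for miR-532 was 2.37, in treated replicate 3, and the miR-362 ratio rests on 5 and 16 counts. Among the treated libraries, replicate 4 also had the highest values of miR-532-3p, miR-362-3p and miR-500-3p and the lowest of miR-362-5p. Apart from miR-500-3p, these levels make up the same ratios and are not separate signs. Over the other 51 hairpins the ratio in treated replicate 4 deviated from the treated mean by a median of 0.0566, towards the 5p arm. The low ratios of this library were therefore not shared by the median of the other hairpins.

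**Figure D3:**
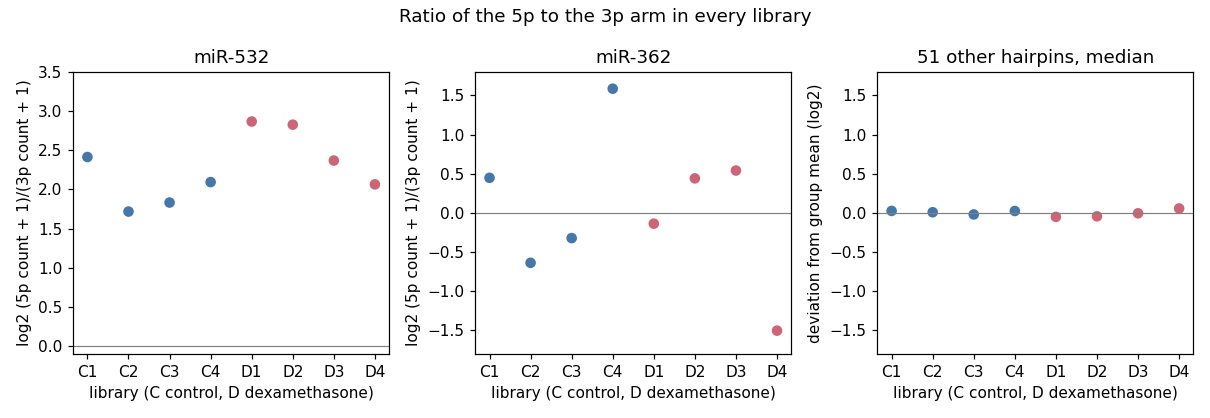
Log2 ratio of 5p to 3p counts (1 added to each) of miR-532 and miR-362 in each library, and the median deviation of that ratio from its group mean over the 51 other hairpins; blue is control, red dexamethasone. The miR-532 ratio is above 0 in all libraries, the miR-362 ratio falls to -1.50 in treated replicate 4, and the median over other hairpins stays within 0.0566 of 0.

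Of the cluster mates fixed for comparison (miR-188, miR-660 and miR-502), miR-188 had rows in the table, and both arms were left out by the abundance filter. miR-188-5p had 8 counts in all controls together and 11 in all treated libraries (0.858 ± 0.8 and 1.88 ± 1.1 CPM, SD, n = 4), and miR-188-3p had 0 and 2. At this depth no difference of miR-188 could be described. Outside the cluster, the seed of miR-362-3p is shared by miR-329-3p, of the imprinted Dlk1-Dio3 locus, with 5 counts in controls and 3 in treated libraries. The seed of miR-532-5p, AUGCCUU, is shared by miR-511-5p, which had 0 and 1. Among rows with a RefSeq sequence, nearly all counts with the known seeds of the arms therefore came from the cluster itself. The seed of miR-362-5p was not searched, since no RefSeq sequence was found for it.

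Profiles over the 8 libraries were compared by the root mean square difference of log2 CPM, each centred on its control mean, among the miRNAs with at least 10 CPM on average. The 5 most like miR-532-5p were miR-503-5p (0.148), miR-542-3p (0.159), miR-351-5p (0.172), miR-30a-5p (0.23) and miR-30c-2-3p (0.241). The 3 nearest belong to a single other cluster of the X chromosome, that of miR-322 and miR-503. The closest arm of its own cluster was miR-362-3p (0.322), at place 12 of the 244 other tested miRNAs, followed by miR-500-3p (0.369, place 20). Its own partner miR-532-3p was at place 43 (0.48), miR-501-3p at 52 and miR-362-5p at 98. With profiles centred on the control mean, these distances include the fold change on which the cluster was selected. The 5 nearest had log2 fold changes of 0.81 to 1.15, beside 1.06 for miR-532-5p, so the distances are not separate evidence of shared behaviour. The arms compared differ in depth, from 39 counts of miR-362-3p to 812 of miR-532-5p over the controls, and the part of depth in these distances was not tested.

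Other miRNAs of the X chromosome were read from the same fit. Of 25 tested ones outside the cluster, 13 were past the threshold as higher and 1 as lower, with a median log2 fold change of 0.326. Over all 245 tested miRNAs, 24.9% were past the threshold as higher and 21.2% as lower. The 9 arms of the miR-322 and miR-503 cluster, all past it as higher, had a median of 0.854 and a range of 0.274 to 1.15, beside the range of 0.511 to 1.06 for the 6 arms studied here. The highest X-linked values with at least 10 CPM were those of miR-672-5p (2.38 ± 0.17) and miR-224-5p (1.45 ± 0.08), and the lowest those of miR-221-3p (-0.95 ± 0.09) and miR-222-3p (-0.44 ± 0.20, log2 fold change ± SE). Of these 4, miR-222-3p did not pass the threshold. The X chromosome thus held values on both sides of 0. No difference between these sets was tested.

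**Figure D4:**
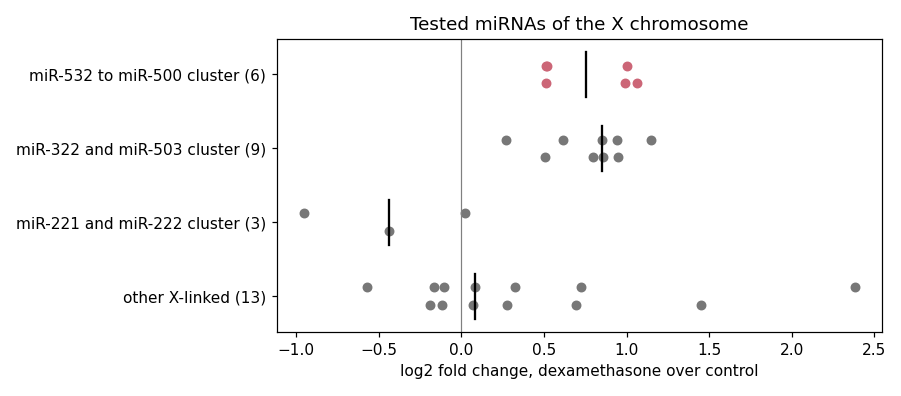
Log2 fold change (dexamethasone over control, horizontal axis) of each tested miRNA that RefSeq places on the X chromosome alone, by set with the number tested; short vertical lines are medians and the vertical scatter only separates points. The 6 arms of the miR-532 to miR-500 cluster (red) lie between 0.511 and 1.06, within the range of the miR-322 and miR-503 cluster.

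All 96 fold changes listed for the 6 arms under the alternatives were above 0. The alternatives were other scalings, tests, filters and depths, a replicate block, a threshold of 0.1 or a library left out. The threshold of 0.1 changes no fold change, so its value for each arm repeats that of the fit described. Not every arm entered every fit. miR-362-3p and miR-362-5p were filtered out after thinning and with the filter of 10 CPM, miR-500-3p with that filter and miR-362-5p without control replicate 4. Upper quartile scaling moved the median of all tested miRNAs to -0.149 and the share of calls that were higher from 54.0 to 36.6%, and the 6 arms had a median of 0.604 in that fit. Since the cluster was selected on this contrast, these values describe the dependence on the settings and support nothing further. Calls of miR-362-3p, miR-500-3p, miR-501-3p and miR-532-3p depended on the fit. miR-532-5p was past the threshold in every fit, from 0.912 to 1.14, and miR-362-5p in none of the fits it entered, from 0.26 to 0.782.

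**Figure D5:**
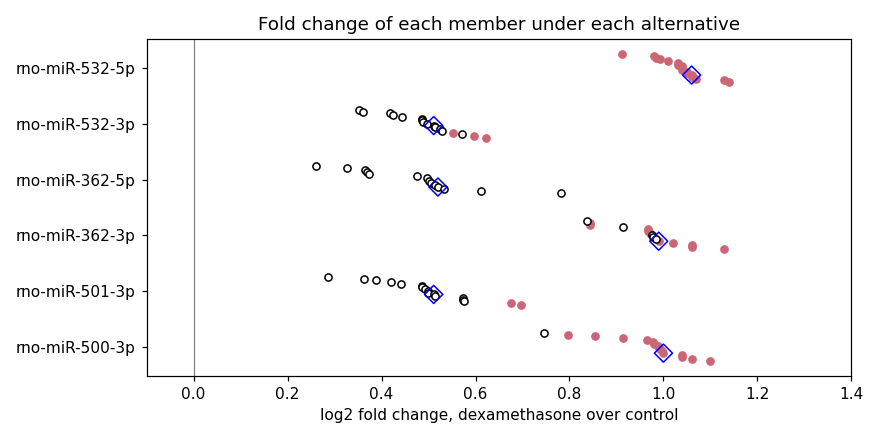
Log2 fold change (dexamethasone over control, horizontal axis) of each tested arm in the fit described and under each alternative scaling, test, filter, depth, block or left-out library; red points pass an adjusted p of 0.05, open points do not, and blue diamonds mark the fit described. miR-532-5p stays between 0.912 and 1.14 and every point lies above 0.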

How the data were processed

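miRNA counts of 8 samples were grouped by their titles into 4 controls and 4 treated with dexamethasone. The authors' deposited table gives whole-number counts and CPM per mature miRNA, and the authors' mean CPM, log2 fold change, p-value and adjusted p-value, which were not used. Per the submitters' processing notes, Bowtie 1.0 and the build mRatBN7.2 were used; the sources used here do not give the counter, miRNA release, strand or handling of multiply mapping reads. Per the labels' protocols, a kit for total RNA libraries was used, and whether short RNAs were selected is not given. The deposited CPM were recomputed from the counts and column totals and differed by at most 4.98e-05.

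Counts were filtered with filterByExpr, scaled by TMM and fitted with group alone in edgeR 4.0.16 (R 4.3.3), using its quasi-likelihood test with Benjamini-Hochberg adjustment over 245 miRNAs; the SE is the size of the log2 fold change divided by the square root of F. TMM factors were 0.944 to 1.02. CPM in the text use library totals, and Wilson 95% intervals and the limit of 3 counts behind a 0 cover counting error only. The fit was tested on simulated data. Alternatives were RLE, upper quartile and total count scaling, DESeq2 1.42.0, no filter, at least 10 CPM in 4 samples, thinning to 1377881 counts, a threshold of 0.1, a replicate block and leaving out each sample. A chromosome was found for 480 of the 487 rows in RefSeq (GRCr8) and a mature sequence for 443; no coordinates are given because the builds differ.

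The members, lists and rules were chosen with earlier results of these data known. Named besides the members are the fixed cluster mates, miRNAs that share a seed, the 5 nearest profiles to the most abundant member, the 2 highest and 2 lowest X-linked fold changes and the most abundant arm of each marker list. The miR-322 and miR-503 cluster, Mir3560 and the arm ratios of treated replicate 4 were singled out after their values or positions were seen.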

Additional observations from a re-analysis of the deposited data

Results flagged for a closer look

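A single sample stood far from the other 3 of its group in 2 of 38 groups examined (Dixon's criterion for 4 samples, which chance passes in about 1 of 20 groups, so 2 flags are about the number chance gives). miR-501-3p in dexamethasone replicate 3 was at 48.5 CPM, with a gap of 0.856 of the group's range to the next library. miR-532-3p in dexamethasone replicate 4 was at 39.2 CPM, with a gap of 0.832 of the range.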

How the results depend on the processing

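Of the 6 tested arms, 3 were higher (61 of all 245 tested miRNAs). With the filter of 10 CPM 1 of 3 was (49 of all 214), and 5 were at a threshold of 0.1 (75 of all 245). With DESeq2 2 were (53 of all 245), with no filter 2 of 7 (61 of all 487) and with the replicate block 2 (52 of all 245). The count stayed 3, with the same arms, under the other scalings (41 to 58 of all 245). After thinning it was also 3, of 4 tested (57 of all 230), but these were miR-532-5p, miR-501-3p and miR-532-3p. Leaving out a single sample gave 2 to 4, against 50 to 70 of the 239 to 255 miRNAs tested in those fits. miR-362-3p missed the threshold with DESeq2 (0.976), no filter (0.978) and the replicate block (0.984, log2 fold change), and ranged from 0.838 to 1.13 without a single sample. miR-500-3p missed it when thinned (0.745). miR-501-3p and miR-532-3p passed when thinned (0.675 and 0.596) and at the threshold of 0.1 (0.511 each), and ranged from 0.287 to 0.696 and from 0.353 to 0.623 without a single sample. The mean log2 ratio of miR-362 arms ranged from -0.171 to 0.57 in controls and from -0.4 to 0.281 in treated samples without a single sample. The cause of these shifts was not tested. Thinning was a single random draw. Same-numbered samples did not deviate together (correlations of -0.211 to 0.076, and 1 of 8 libraries correlated best with its own number). No pairing by number was seen, and with 4 samples per group a weak one could be missed. The replicate block gave 52 higher and 45 lower miRNAs against 61 and 52 without it. Shares and the 5 nearest profiles kept within their spread, the latter all shared with total count scaling. Depth limits the 3 low arms, with 5 to 24 counts per library.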
